A study of Mus musculus with 8 samples.

Results

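Transcripts of the dystrophin-glycoprotein complex were followed in muscle of mice made obese by diet, through 8 of its genes taken by name from the deposited table of 22173 genes. They were Dmd, Utrn, Dag1, Sgca, Sgcb, Sgcd, Sntb1 and Dtna, and all 8 were measured. The liraglutide group was C57BL/6 mice made obese by diet, 24 weeks old at assignment, injected under the skin for 9 weeks with liraglutide, which activates the GLP-1 receptor, at 0.2 mg/kg/day. The model group was mice of the same strain, age and obesity that received saline, and no lean group was compared. Each group held 8 mice, of which 4 were sequenced, so each value below comes from 4 animals per group. Which muscle was taken and the sex of the mice are not given in the sources used here. Libraries came from a stranded mRNA kit after TRIzol extraction, and their totals were 17133476 to 18244579 counts with liraglutide and 15033631 to 16622716 counts in the model group. Liraglutide 2 and model 3 stood apart in transcripts of other tissues in earlier results of these data, and values without them are given below.

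The complex joins the actin cytoskeleton inside a muscle fibre to the laminin network outside it. Dystrophin binds actin at its N-terminal end and the membrane protein dystroglycan near its C-terminal end, the sarcoglycans and sarcospan brace that contact within the membrane, and syntrophins and dystrobrevins attach signalling proteins to its inner face. Utrophin is the autosomal relative of dystrophin and in adult fibres is concentrated at the neuromuscular junction. Loss of dystrophin causes Duchenne muscular dystrophy, and loss of alpha-, beta-, gamma- or delta-sarcoglycan causes limb-girdle muscular dystrophy.

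Sgca, the gene of alpha-sarcoglycan, rose with liraglutide, and Utrn fell. The other 6 genes did not pass the test. Thus 1 of 8 was called higher, against 5.45% of the 12963 genes tested, and 1 of 8 was called lower, against 4.83%, so 2 of 8 were called in either direction, against 10.3%. All 8 passed the filter on low counts. The median log2 fold change of the 8 genes was -0.11, against -0.01 over all genes tested, with 5 values negative and 3 positive. A call means an adjusted p under 0.05 in the quasi-likelihood test of edgeR over all genes tested, and fold changes are liraglutide minus model on the log2 scale. FPKM, a count scaled to gene length and to the library total, is the level scale throughout.

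On this per-length scale the 8 genes kept 1 order in both groups. Sgca was the most abundant transcript, at 123 ± 2.85 FPKM with liraglutide and 106 ± 1.86 FPKM in the model group (SD, n = 4 each). Dag1 came next, then Sgcb, Sgcd, Dtna, Dmd, Utrn and Sntb1. The library ranges of neighbours in that order did not overlap in the liraglutide group. In the model group Dtna and Dmd overlapped, at 10.8 to 11.2 and 9.98 to 10.9 FPKM, so their order is not resolved there. The lowest gene, Sntb1, averaged 1.41 ± 0.23 FPKM with liraglutide and 2.3 ± 0.569 FPKM in the model group.

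**Figure D1:**
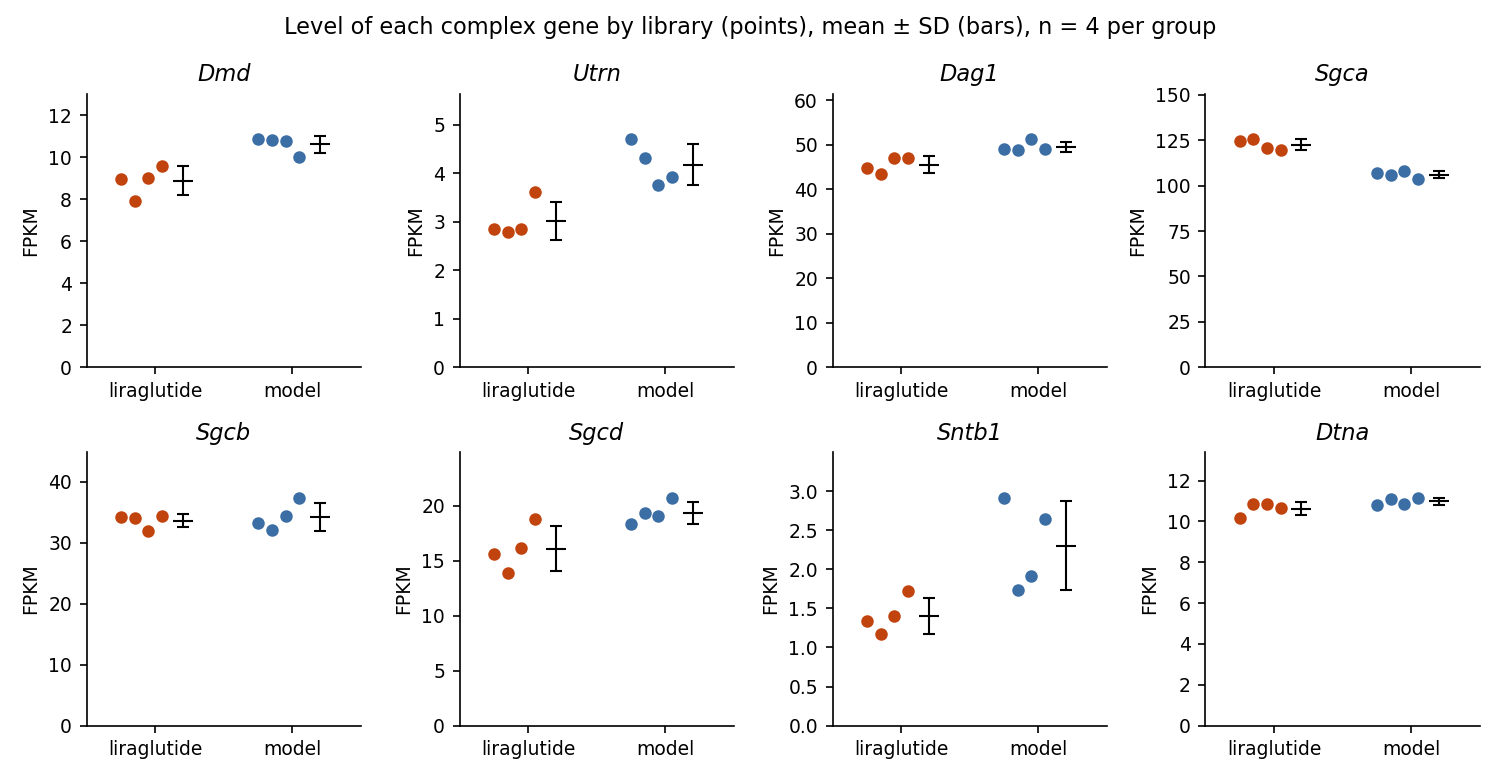
FPKM (vertical axis, from 0) of each of the 8 genes in the 4 liraglutide libraries (left) and the 4 model libraries (right), each point 1 library, with mean ± SD beside the points. Sgca is higher in each liraglutide library than in any model library, and Dmd, Utrn, Dag1 and Sntb1 are lower in each, before TMM scaling.

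Windows at annotated starts of the called genes, Sgca and Utrn, and of Dmd are shown, the last because dystrophin is the core of the complex. Whether transcripts in these libraries begin at these starts was not tested. Windows run from 250 bases before to 50 bases after a RefSeq start site (build GRCm38.p6), 5′ to 3′ on the gene's strand. Capitals mark the E-box CANNTG, which myogenic factors such as MyoD bind, and the CArG and MEF2 boxes of serum response factor and MEF2.
Sgca, chr11:94976278-94976577, minus strand: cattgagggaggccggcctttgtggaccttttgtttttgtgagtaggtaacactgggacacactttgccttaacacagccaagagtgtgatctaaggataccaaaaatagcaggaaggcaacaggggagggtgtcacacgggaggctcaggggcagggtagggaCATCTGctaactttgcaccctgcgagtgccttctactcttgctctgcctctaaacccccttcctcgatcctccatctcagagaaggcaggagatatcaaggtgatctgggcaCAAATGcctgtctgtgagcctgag
Utrn, chr10:12861686-12861985, minus strand: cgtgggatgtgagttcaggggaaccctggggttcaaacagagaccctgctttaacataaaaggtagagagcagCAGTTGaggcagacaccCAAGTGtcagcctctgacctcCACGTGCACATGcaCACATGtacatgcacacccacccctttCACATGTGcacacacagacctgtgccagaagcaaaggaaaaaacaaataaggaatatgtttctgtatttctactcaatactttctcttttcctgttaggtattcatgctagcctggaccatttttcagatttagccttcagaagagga
Dmd, upstream start, chrX:82948620-82948919, plus strand: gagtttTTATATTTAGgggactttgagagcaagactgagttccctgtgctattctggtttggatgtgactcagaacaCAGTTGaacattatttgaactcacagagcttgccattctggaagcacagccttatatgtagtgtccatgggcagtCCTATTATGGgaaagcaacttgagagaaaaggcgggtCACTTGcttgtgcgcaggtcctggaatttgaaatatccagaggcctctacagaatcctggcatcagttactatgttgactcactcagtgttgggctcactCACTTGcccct

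The Dmd window held a CArG box, CCTATTATGG, 98 bases before the start, a MEF2 box, TTATATTTAG, 244 bases before it, and 3 E-boxes. The Sgca window held 2 E-boxes and neither of the other motifs. The Utrn window held 7 E-boxes, some of them overlapping, and neither of the other motifs. Its GC content was 46.0%, and it held neither GGGCGG nor TTCCGG, which occurred in 35.7% and 14.9% of the promoter windows. Use of this Utrn start in muscle was not tested, so its E-boxes are a description of the window alone. Searched on both strands, E-boxes occurred in 72.3% of the 32851 promoter windows of this length in the table, CArG boxes in 1.63% and MEF2 boxes in 3.19%. The windows of Sgcd and Dag1 held E-boxes alone, and that of Sgcb and a second, internal start of Dmd held none of the 3 motifs. Windows of 6 of the 8 genes were searched. Sntb1 had no window in the set used, and Dtna was left out of the search.

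Dmd encodes dystrophin and its row pools every isoform, since the table has 1 row per gene. Dmd (Entrez gene 13405) had 8.97, 7.92, 9.01 and 9.6 FPKM in liraglutide libraries 1 to 4, against 10.9, 10.8, 10.8 and 9.98 FPKM in model libraries 1 to 4. All liraglutide values lay under all model values. On the FPKM scale groups were apart for 5 of the 8 genes (Dmd, Utrn, Dag1, Sgca and Sntb1), against 20.3% of the genes tested. After TMM scaling, which raises the liraglutide libraries relative to the model libraries, they were apart for 1 of 8 (Sgca), against 18.3%. The log2 fold change was -0.18 (SE 0.065), and the edgeR adjusted p of 0.11 did not pass. The call depended on scaling. With raw library sizes 4 of the 8 genes were called (Dmd, Utrn, Sgca and Sntb1), against 12.2% of all genes. Dmd was called at -0.26 with raw library sizes (edgeR adjusted p = 0.0255), which moved the median of all genes to -0.09, and at -0.24 by limma on log2(FPKM + 1) (adjusted p = 0.0434).

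Utrn (Entrez gene 22288) had 2.84, 2.8, 2.84 and 3.61 FPKM in liraglutide libraries 1 to 4, against 4.71, 4.32, 3.76 and 3.93 FPKM in model libraries 1 to 4. Liraglutide 4 stood close to the lowest model library and the other 3 well under it. Its log2 fold change was -0.39 (SE 0.098), a fall that passed with an edgeR adjusted p of 0.0342. The mean was 3.02 ± 0.393 FPKM with liraglutide and 4.18 ± 0.422 FPKM in the model group (SD, n = 4 each). Leaving out liraglutide 1, 2 or 3 or model 1, 2 or 4 ended the call, at edgeR adjusted p of 0.0574 to 0.0955. The log2 fold change of Utrn was then -0.42 to -0.33. The call held without liraglutide 4, at -0.48, and without model 3, at -0.44. Utrn is also made outside muscle fibres, including in vessel walls. The summed level of 11 endothelial markers was 485 to 558 CPM, that is, per library total, with liraglutide and 559 to 631 CPM in the model group, with 0 of 11 called by edgeR or DESeq2, 1 by limma, 2 with raw library sizes, 2 at an unadjusted p under 0.05, and a median log2 fold change of -0.12. Of 12 markers of the neuromuscular junction 1 was called higher (Rapsn, for the receptor-clustering protein rapsyn, log2 fold change 0.49, edgeR adjusted p = 0.0117) and 0 lower, and 0 were called without liraglutide 2 and model 3 or with length and GC (edgeR adjusted p of Rapsn 0.0525 and 0.0533). Among all genes 5.45% were called higher and 4.83% lower. The junction markers summed to 178 to 190 CPM with liraglutide and 169 to 179 CPM in the model group. The part of either in the Utrn result was not tested. In bulk tissue, fewer cells of a type and less RNA per cell cannot be told apart.

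Dag1 encodes the precursor of alpha- and beta-dystroglycan, the laminin receptor and the membrane anchor of dystrophin. It had 44.7, 43.4, 47.1 and 47.1 FPKM in liraglutide libraries 1 to 4, against 49.1, 48.8, 51.3 and 49.1 FPKM in model libraries 1 to 4. These ranges did not overlap in FPKM but did after TMM scaling. The log2 fold change was -0.05 (SE 0.047, edgeR adjusted p = 0.596), and its sign was positive with either offset for gene length described below and without liraglutide 2 and model 3.

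Of Sgca, Sgcb and Sgcd, which encode sarcoglycans, Sgca was the one called. Sgca (Entrez gene 20391) had 125, 126, 121 and 120 FPKM in liraglutide libraries 1 to 4, against 107, 106, 108 and 104 FPKM in model libraries 1 to 4. The groups were apart both in FPKM and after TMM scaling, and the 4 libraries within each lay within a few FPKM of one another. Sgca rose 1.22-fold after TMM scaling (log2 fold change 0.28, SE 0.039, edgeR adjusted p = 0.00298). It was called higher in 19 of 19 alternative analyses.

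Sgcb, for beta-sarcoglycan, had 34.2, 34, 31.9 and 34.3 FPKM in liraglutide libraries 1 to 4, against 33.2, 32, 34.4 and 37.4 FPKM in model libraries 1 to 4. These ranges overlapped, the log2 fold change was 0.05 (SE 0.054, edgeR adjusted p = 0.616), and it turned to -0.03 with raw library sizes. Sgcd, for delta-sarcoglycan, had 15.6, 13.9, 16.2 and 18.8 FPKM in liraglutide libraries 1 to 4, against 18.4, 19.4, 19.1 and 20.8 FPKM in model libraries 1 to 4. Here 3 liraglutide libraries lay under the model range and liraglutide 4 within it, with a log2 fold change of -0.19 (SE 0.086, edgeR adjusted p = 0.19).

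Sgce and Sspn, also of this membrane subcomplex, were not called. Sgce, for epsilon-sarcoglycan, which replaces alpha-sarcoglycan outside striated muscle, averaged 5.95 ± 0.867 FPKM with liraglutide and 7.31 ± 0.894 FPKM in the model group (log2 fold change -0.22, edgeR adjusted p = 0.284). Sspn, for sarcospan, averaged 6.55 ± 0.594 FPKM with liraglutide and 7.28 ± 0.116 FPKM in the model group (log2 fold change -0.08, edgeR adjusted p = 0.493). Sgcz, for zeta-sarcoglycan, had 0 counts in every library.

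Sntb1 encodes beta-1-syntrophin, an adaptor that binds dystrophin and carries a PDZ domain. Sntb1 had 1.34, 1.17, 1.41 and 1.72 FPKM in liraglutide libraries 1 to 4, against 2.92, 1.73, 1.91 and 2.64 FPKM in model libraries 1 to 4. These values rest on 113 to 156 counts per liraglutide library and 138 to 245 counts per model library, the fewest of the 8 genes. The liraglutide values lay under the model values by a narrow margin between liraglutide 4 and model 2, and the groups overlapped after TMM scaling. Sntb1 had the most negative log2 fold change of the 8 genes, -0.63 (SE 0.183), and did not pass (edgeR adjusted p = 0.0566). DESeq2 called it, at a log2 fold change of -0.62 (adjusted p = 0.0228). Sntb2, for beta-2-syntrophin, averaged 1.15 ± 0.292 FPKM with liraglutide and 1.5 ± 0.175 FPKM in the model group, without a call.

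Dtna encodes alpha-dystrobrevin, a relative of dystrophin that binds it and the syntrophins. Dtna had 10.2, 10.9, 10.8 and 10.7 FPKM in liraglutide libraries 1 to 4, against 10.8, 11.1, 10.9 and 11.2 FPKM in model libraries 1 to 4. The groups overlapped. The log2 fold change was 0.03 (SE 0.045, edgeR adjusted p = 0.729) and turned to -0.05 with raw library sizes. Its paralog Dtnb was at 0.443 ± 0.151 FPKM with liraglutide and 0.352 ± 0.0587 FPKM in the model group, also without a call.

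Of 11 further genes of the complex or bound to it, 8 could be tested, of which 2 rose and 0 fell, against 5.45% higher and 4.83% lower among all genes. Without liraglutide 2 and model 3, 0 were called. Their median log2 fold change was 0.15. Cav3, for caveolin-3, the muscle caveolin that binds beta-dystroglycan, had 28.7, 30, 26.6 and 26.8 FPKM in liraglutide libraries 1 to 4, against 23.5, 24.9, 24.9 and 22.8 FPKM in model libraries 1 to 4. The groups did not overlap, and Cav3 rose 1.23-fold after TMM scaling (edgeR adjusted p = 0.0139), a call that ended without liraglutide 2 and model 3 and with the length and GC offset (edgeR adjusted p = 0.129). Nos1, for the neuronal nitric oxide synthase that syntrophin holds at the membrane, averaged 15.5 ± 0.557 FPKM with liraglutide and 14.2 ± 0.941 FPKM in the model group. Nos1 rose, at a log2 fold change of 0.20 (edgeR adjusted p = 0.0423), a call that ended with raw library sizes and on leaving out any library but model 4 (adjusted p up to 0.11). The exons of Dtna, Sspn and Nos1 overlap a gene on the opposite strand in GENCODE M21, and whether the counting used strand is not given in the sources used here.

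**Figure D2:**
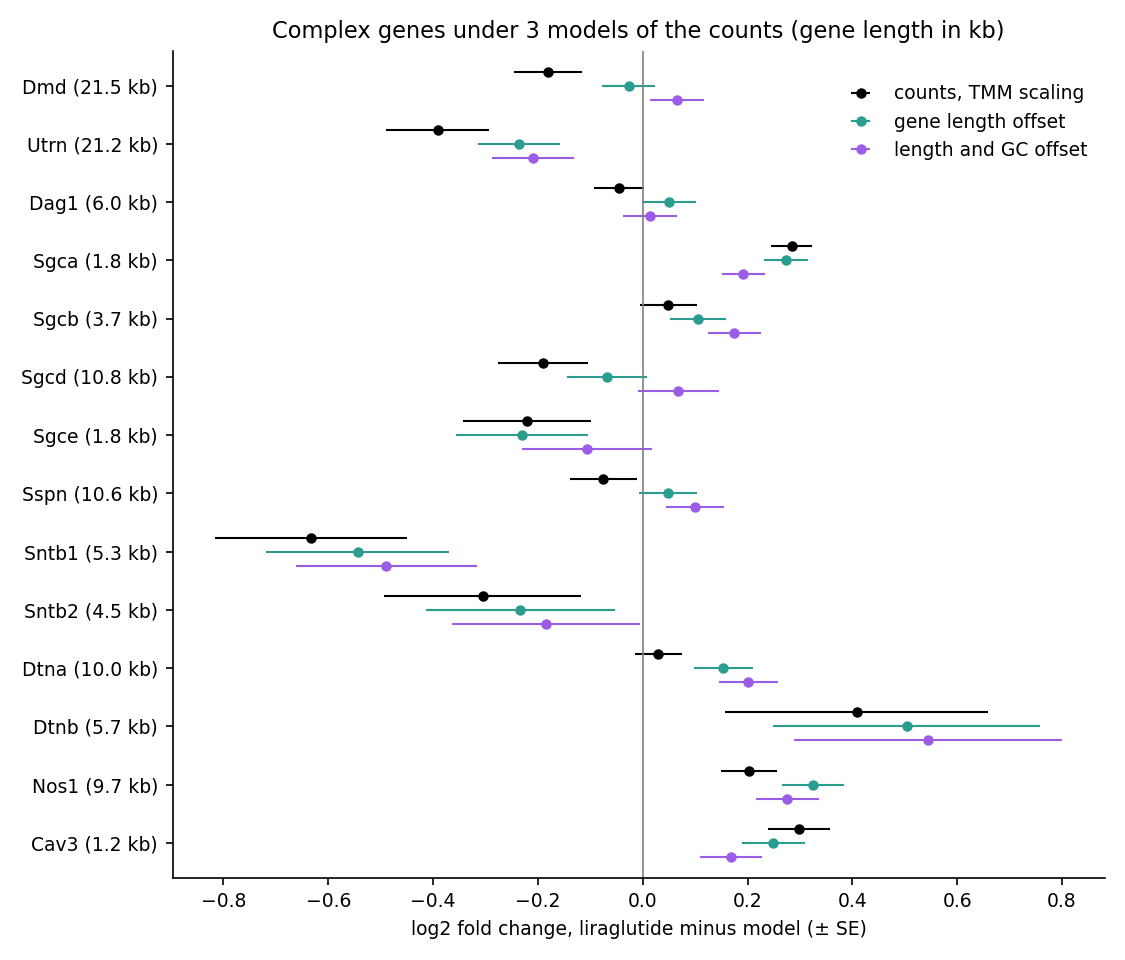
Log2 fold change, liraglutide minus model (horizontal axis, bars ± SE), of the 8 genes and 6 further genes of the complex, with gene length in kilobases beside each name. Black is the edgeR fit with TMM scaling, green adds an offset for gene length and purple an offset for length and GC content. Sgca stays above 0 in all 3, Dmd crosses 0, and Utrn and Sntb1 stay below 0.

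Gene length differed widely within the complex, from 1756 bases for Sgca to 21176 for Utrn and 21485 for Dmd, and fold changes in these libraries varied with it. Among the 2115 tested genes of 1000 to 2000 bases, the class of Sgca, the median log2 fold change was 0.09, the upper quartile 0.22, and 11.5% were called higher. Among the 179 genes over 20000 bases, the class of Dmd and Utrn, the median was -0.10, the quartiles were -0.22 and 0.01, and 7 (3.91%) were called lower, Utrn among them. Dmd, at -0.18, lay within the quartiles of its class, and Utrn, at -0.39, lay below them. Sgca, at 0.28, lay above the upper quartile of its class.

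A fit with an offset for the length trend of each library called 1 of the 8 genes, against 8.32% of all genes, and a fit with length and GC content called 1 of 8, against 4.78%. Sgca was the gene called in both, at log2 fold changes of 0.27 (edgeR adjusted p = 0.00622) and 0.19 (edgeR adjusted p = 0.0309). Utrn stood at -0.24 (edgeR adjusted p = 0.092) with the length offset and -0.21 (edgeR adjusted p = 0.153) with both. Dmd stood at -0.03 with the length offset and at 0.07 with both, a change of sign, and Sgcd at -0.07 and 0.07. The deviation of a library from the mean correlated with gene length (Spearman) at -0.16, -0.26, -0.19 and -0.02 in liraglutide libraries 1 to 4, so liraglutide 4 had almost no trend. In the model libraries it was 0.16 to 0.23. With GC content the correlations were 0.17 to 0.24 with liraglutide and -0.27 to -0.13 in the model group. Both trends ran between the groups, so an effect of treatment on long transcripts and a difference between the libraries in recovering them cannot be told apart.

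**Figure D3:**
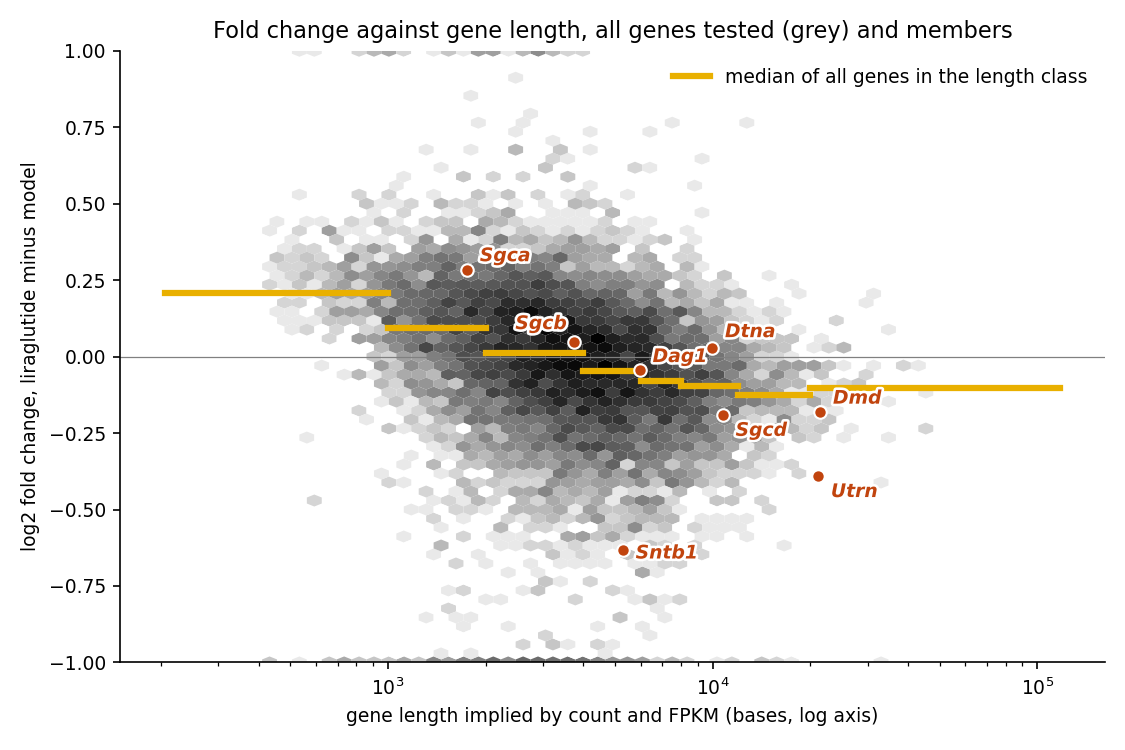
Log2 fold change, liraglutide minus model (vertical axis, values beyond 1 in either direction drawn at the edge), against gene length in bases (log axis) for the 12963 genes tested, darker grey for more genes. Yellow lines are the medians of length classes, which are 0.21 for genes up to 1000 bases and -0.10 for genes over 20000 bases, and red points are the 8 genes.

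Ratios of 2 genes within a library do not depend on the scaling between libraries. They are given as a description, without a test. The Utrn to Dmd ratio, between genes of nearly equal length, was 0.317, 0.353, 0.315 and 0.376 in liraglutide libraries 1 to 4, against 0.434, 0.399, 0.349 and 0.393 in model libraries 1 to 4. The groups overlapped through model 3, with means of 0.341 ± 0.0296 with liraglutide and 0.394 ± 0.0346 in the model group (SD, n = 4 each).

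The Sgca to Sgcb ratio was 3.64, 3.7, 3.78 and 3.49 in liraglutide libraries 1 to 4, against 3.23, 3.3, 3.14 and 2.78 in model libraries 1 to 4. Every liraglutide library lay above every model library. The Sgca to Sgcd ratio averaged 7.72 ± 1.11 with liraglutide and 5.49 ± 0.359 in the model group, without overlap. The Sgca to Dmd ratio was 12.5 to 15.9 with liraglutide and 9.76 to 10.4 in the model group, also without overlap. In each of these 3 ratios Sgca is the shorter gene. The Sgce to Sgca ratio, between genes of 1822 and 1756 bases, averaged 0.0485 ± 0.00656 with liraglutide and 0.069 ± 0.00917 in the model group, without overlap. Near-equal length does not free it of the GC trend. From the length offset to length and GC, the log2 fold change of Sgce went from -0.23 to -0.11 and that of Sgca from 0.27 to 0.19. The Sgcd to Dmd ratio averaged 1.81 ± 0.0994 with liraglutide and 1.83 ± 0.17 in the model group and overlapped. The Dag1 to Dmd ratio averaged 5.15 ± 0.261 with liraglutide and 4.68 ± 0.195 in the model group, overlapping at liraglutide 4 and model 4.

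**Figure D4:**
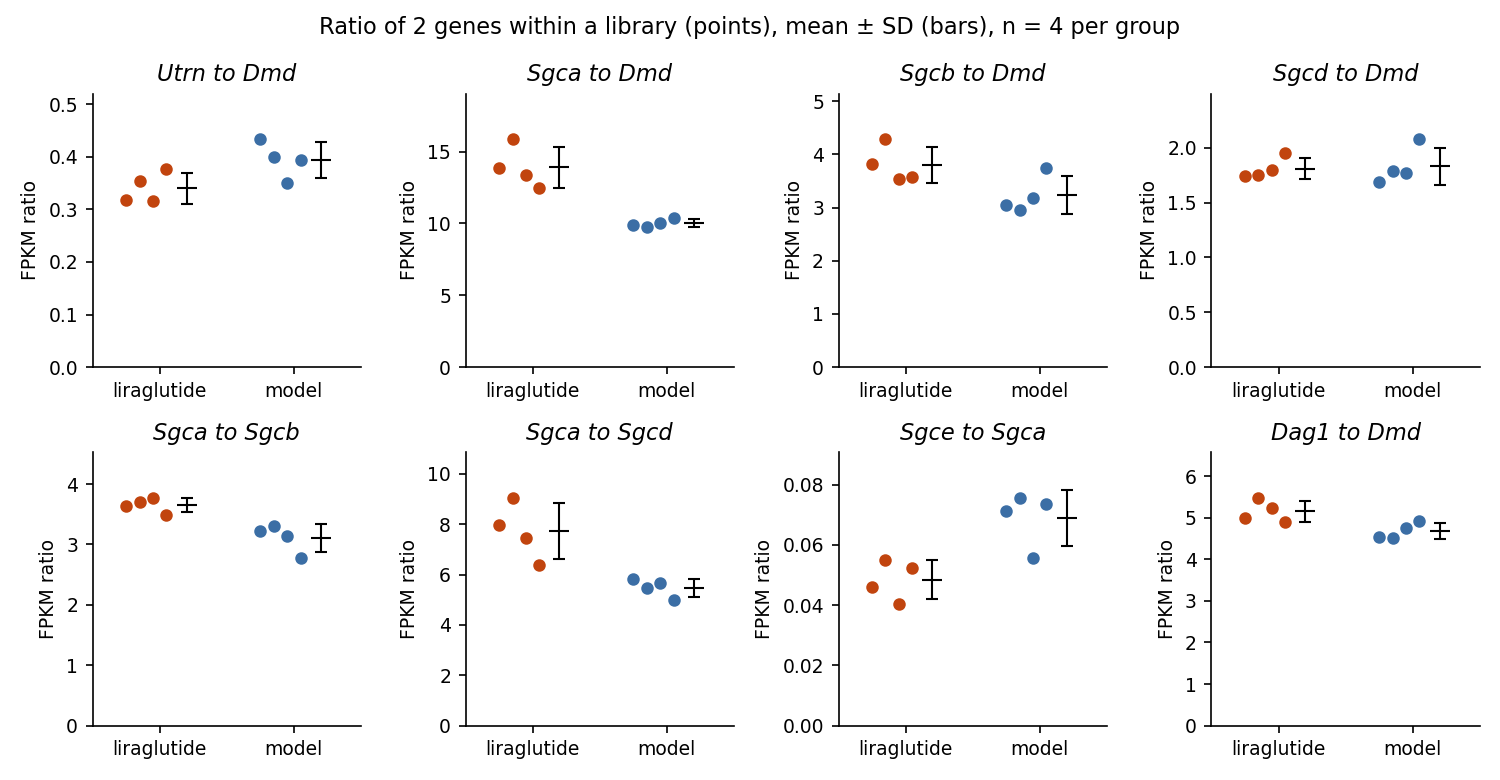
Ratio of the FPKM of 2 genes within each library (vertical axis, from 0), liraglutide left and model right, each point 1 library, with mean ± SD. Ratios with Sgca over Dmd, Sgcb or Sgcd are higher in each liraglutide library, while Sgcd to Dmd and Dag1 to Dmd overlap.

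The genes whose course over the 8 libraries was most like that of Dmd, among 10173 genes of at least 1 FPKM, were Ranbp2, a nuclear pore protein gene, Bod1l and Ercc6, a DNA repair gene. Their root mean square differences from Dmd in centred log2 CPM were 0.0383, 0.0396 and 0.0435, against a spread of Dmd itself of 0.126. They had 9477, 10549 and 8772 bases and log2 fold changes of -0.19, -0.17 and -0.13, without a call. Nearest to Utrn were Asah2, for neutral ceramidase, Scn7a, for a sodium channel, and Xpa, a DNA repair gene, at 0.0602, 0.0637 and 0.0715, against a spread of Utrn of 0.24. These had 4823, 7333 and 955 bases and log2 fold changes of -0.39, -0.41 and -0.40, with Scn7a alone called (edgeR adjusted p = 0.0379). The difference between the groups and the length trend enter this measure, and shared regulation was not tested.

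Outside the fibre, laminin genes were lower in part. Of 11 genes of matrix ligands of dystroglycan 10 were tested, of which 0 rose and 2 fell, against 5.45% higher and 4.83% lower among all genes, with a median log2 fold change of -0.19. The number lower was 5 with raw library sizes and 0 on leaving out liraglutide 1 or 3 or model 1, 2 or 4. With the length offset 1 was called higher and 1 lower, and with length and GC 0 higher and 1 lower. Lamb1, for the laminin beta-1 chain, had 6.6, 5.59, 6.05 and 7.62 FPKM in liraglutide libraries 1 to 4, against 9.47, 9.05, 8.18 and 10.8 FPKM in model libraries 1 to 4. The groups did not overlap and Lamb1 was lower by a log2 fold change of -0.46 (SE 0.107), which passed with an edgeR adjusted p of 0.025. Lama4, for the laminin alpha-4 chain of vessels and fat, fell by 0.50 on that scale (edgeR adjusted p = 0.0427). Lama2, for the alpha-2 chain of the fibre's own basement membrane, averaged 4.87 ± 0.402 FPKM with liraglutide and 6.04 ± 0.36 FPKM in the model group and did not pass (log2 fold change -0.24, edgeR adjusted p = 0.058). It was named after its value was seen. The call of Lamb1 ended on leaving out liraglutide 1 or 3 or model 1, 2 or 4 (adjusted p up to 0.0694), and that of Lama4 on leaving out liraglutide 1, 2 or 3 or model 1, 2 or 4 (up to 0.109). The Lama4 call also ended with the length offset (edgeR adjusted p = 0.0621), with length and GC (0.0777), and without liraglutide 2 and model 3 (0.0776). Beside these, 7 of 12 adipocyte markers fell and 0 rose, with sums of 1676 to 2324 CPM with liraglutide and 2469 to 3462 CPM in the model group, and 2 of 12 markers of fibro-adipogenic progenitors fell and 0 rose, with sums of 2213 to 2930 CPM with liraglutide and 2894 to 3443 CPM in the model group. These counts stand against the same 5.45% higher and 4.83% lower among all genes. The adipocyte count was 3 without model 1, 2 or 4 and 4 without liraglutide 1. The progenitor count was 5 without liraglutide 1, 4 by DESeq2 or with raw library sizes, and 1 on leaving out any other library. Their part in the laminin result was not tested.

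The enzymes that build the laminin-binding sugar of alpha-dystroglycan did not pass the test in the 8 libraries. All 17 were tested, 0 were called in either direction by edgeR, DESeq2 or limma on the 8 libraries, 1 was called higher by edgeR without model 2, 0 had an unadjusted p under 0.05, and the median log2 fold change was -0.01, the same as over all genes at this precision. Pomk, for the mannose kinase of this pathway, was at 3.29 ± 0.341 FPKM with liraglutide and 2.99 ± 0.24 FPKM in the model group (edgeR adjusted p = 0.207).

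The integrin adhesion system, the other laminin receptor of muscle, had 1 of 10 genes lower and 0 higher, against 4.83% and 5.45% among all genes, with a median of -0.04. With raw library sizes or by limma 2 were lower, Parva and Itgb1. The gene called after TMM scaling was Parva, for alpha-parvin, a partner of integrin-linked kinase. Parva had 6.19, 6.08, 5.6 and 5.97 FPKM in liraglutide libraries 1 to 4, against 9.06, 7.45, 7.57 and 8.7 FPKM in model libraries 1 to 4. The groups did not overlap, and Parva fell, at a log2 fold change of -0.38 (SE 0.072, edgeR adjusted p = 0.0111), in 19 of 19 alternatives too. Itgb1, for the beta-1 integrin chain, averaged 49.9 ± 3.94 FPKM with liraglutide and 58.6 ± 1.9 FPKM in the model group. After TMM scaling it had no call (log2 fold change -0.15, edgeR adjusted p = 0.124). It was called at -0.23 with raw library sizes (edgeR adjusted p = 0.0334) and by limma on log2(FPKM + 1) (adjusted p = 0.0372).

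On the cytoskeletal side 2 of 11 genes rose and 1 fell, against 5.45% higher and 4.83% lower among all genes, with a median of 0.07. Des, for the intermediate filament protein desmin, averaged 1352 ± 82.9 FPKM with liraglutide and 1182 ± 24.5 FPKM in the model group (SD, n = 4 each). Des rose 1.21-fold after TMM scaling (edgeR adjusted p = 0.0114) and 1.14-fold with raw library sizes, the scale of FPKM. Its call ended with the length and GC offset (log2 fold change 0.22, edgeR adjusted p = 0.07). Plec, for plectin, which links intermediate filaments to the complex, rose 1.24-fold after TMM scaling (edgeR adjusted p = 0.0214), with 66.4 FPKM in liraglutide 2 and 77.5 to 82.4 FPKM in the other liraglutide libraries, against 61.8 to 67.2 FPKM in the model group. Plec has 17515 bases, so its rise ran against the length trend, and its log2 fold change was 0.46 with the length offset. Without model 1 or model 4 (adjusted p up to 0.0631), or by limma, the Plec call ended. Sptbn1, for a non-erythroid beta-spectrin, fell by 0.31 (SE 0.071, edgeR adjusted p = 0.0234), a call that ended with the length offset (edgeR adjusted p = 0.156) and on leaving out liraglutide 1 or 2 or model 1, 2 or 4.

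Of 10 genes of membrane repair, which reseals fibres torn under load, 4 fell and 0 rose, against 4.83% lower and 5.45% higher among all genes, with a median of -0.16. The number lower was 6 with raw library sizes or by limma, 2 with either offset or without liraglutide 2 and model 3, and 1 without liraglutide 2, model 1 or model 4. Without both liraglutide 2 and model 3, 1 gene of this list was also called higher. Anxa1, for annexin A1, had 40.3, 35, 34.2 and 35.6 FPKM in liraglutide libraries 1 to 4, against 59, 48.2, 49.1 and 64.3 FPKM in model libraries 1 to 4. The groups did not overlap, and Anxa1 fell, at a log2 fold change of -0.53 (SE 0.097, edgeR adjusted p = 0.0101). Anxa2, Anxa5 and Myof, for annexins A2 and A5 and myoferlin, had log2 fold changes of -0.50, -0.36 and -0.41 (edgeR adjusted p = 0.041, 0.0488 and 0.0248). The calls of Anxa5 and Myof ended with the length offset (edgeR adjusted p = 0.0515 and 0.0639), and those of Anxa2 and Myof without liraglutide 2 and model 3 (0.0738 and 0.0525). Dysf, for dysferlin, the main repair protein of the fibre, averaged 11.7 ± 0.753 FPKM with liraglutide and 11.9 ± 0.273 FPKM in the model group, without a call, and was named after its value was seen. The annexins and myoferlin are also abundant in connective tissue, fat and immune cells, whose marker sums stand beside the laminin genes above and below, and their part was not tested. Leaving out 1 library ended the Anxa2 call in 4 of 8 cases (liraglutide 2 or 3, model 1 or 4), the Anxa5 call in all but the omission of model 3, and the Myof call in all but those of liraglutide 1 and model 3.

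**Figure D5:**
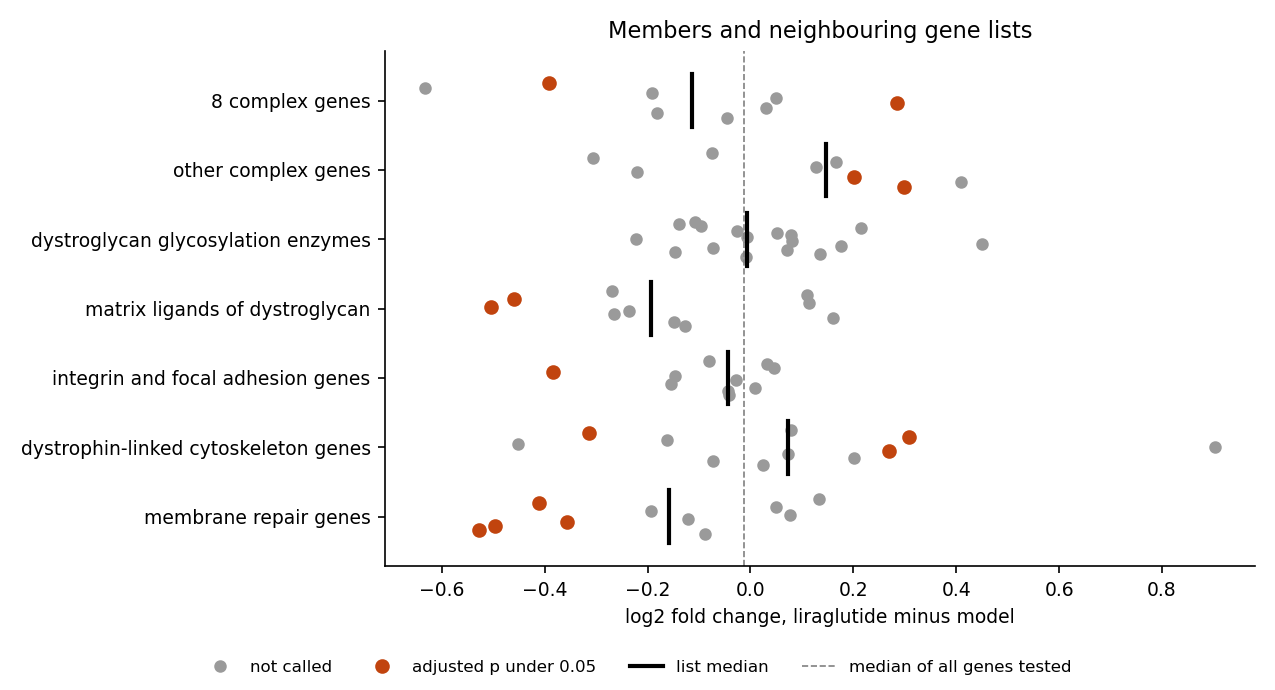
Log2 fold change, liraglutide minus model (horizontal axis), of each tested gene in the 8 complex genes and 6 neighbouring lists, red where the adjusted p was under 0.05, with the list median as a black bar and the median of all genes as a dashed line. Called members fall on both sides of 0 among the 8 complex genes and the cytoskeleton genes, above 0 among other complex genes, and below 0 among matrix ligands, adhesion and membrane repair genes.

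The tissue label was borne out by fibre markers, whose 12 genes summed to 173162 to 185725 CPM with liraglutide and 169964 to 173008 CPM in the model group, with 4 higher and 0 lower and a median log2 fold change of 0.14. The number higher was 2 with raw library sizes, 1 by limma and 1 with length and GC. Among all genes 5.45% were called higher and 4.83% lower, the shares against which this list and those below stand. Markers of smooth muscle and pericytes (1 of 11 higher, 1 lower), Schwann cells (0 of 9 called), macrophages (0 of 11 called), satellite cells (1 of 8 higher) and tendon (2 of 8 higher, 0 lower) were present in both groups, and no listed marker was at 0 in every library. The smooth muscle marker called higher was Des, given above with the cytoskeleton genes. That call is therefore not a separate result, and the counts of Des enter the smooth muscle sum below. At an unadjusted p under 0.05 in edgeR there were 0 Schwann cell and 3 macrophage markers, and DESeq2 called 0 and 1 of them. Macrophage markers called lower numbered 4 without liraglutide 1, 2 with raw library sizes or the replicate block, and 1 without model 4. The satellite cell count was 0 without liraglutide 3 or any model library, and the tendon count 5 without liraglutide 3 and 1 without model 1. Summed levels were 4821 to 5302 CPM with liraglutide and 4512 to 4798 CPM in the model group for smooth muscle and pericytes, 97.3 to 150 CPM with liraglutide and 115 to 129 CPM in the model group for Schwann cells, and 296 to 493 CPM with liraglutide and 387 to 466 CPM in the model group for macrophages. They were 94.5 to 125 CPM with liraglutide and 106 to 133 CPM in the model group for satellite cells, and 248 to 577 CPM with liraglutide and 174 to 287 CPM in the model group for tendon. Of 10 epididymis markers listed 8 were tested, and all 8 were lower. The 10 summed to 0.226 to 1.64 CPM with liraglutide and 25.1 to 52.6 CPM in the model group. At these sums a gene could pass the filter on low counts only with the help of the model libraries. The filter thus favoured that direction, and the count of 8 is no support for it. The part of these markers in the results above was not tested. Without liraglutide 2 and model 3, 1 of the 8 complex genes was called, against 5.38% of all genes. This was Sgca (log2 fold change 0.29, edgeR adjusted p = 0.0182), while Utrn stood at -0.39 (edgeR adjusted p = 0.0664).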

How the data were processed

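The authors deposited 1 table with a raw count and an FPKM value per gene and library, per the file headers. HTSeq, HISAT2, Trimmomatic, DESeq and Cufflinks are listed, with no version or role, per the submitters' processing notes, which also list the human build GRCh38. Of the genes, 21979 carried a gene identifier of the mouse RefSeq annotation. Which build was used is thus unclear, and coordinates are given only for the promoter windows (RefSeq, GRCm38.p6). FPKM equalled count over library total and a whole-number gene length (within 0.01 base) for all 17484 genes with a count, so FPKM carries no scaling beyond library totals. One misspelt column name was assigned through its animal code.

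Counts were tested with edgeR 4.0.16 in R 4.3.3 (quasi-likelihood test, TMM scaling, filterByExpr with a minimum count of 10, group as the only term), Benjamini-Hochberg adjusted over 12963 genes. SE is the log2 fold change over the square root of the F statistic. The common biological coefficient of variation was 13.7%. Length and length with GC offsets used a loess smooth (span 0.5; GC of the longest GENCODE M21 transcript, known for 99.5% of tested genes). Scripts were tested on simulated data. The recovery required in that test was lowered once, after a first run fell just short of it. DESeq2 1.42.0 and limma 3.58.1 were alternatives. Replicates are separate animals by their codes. 

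The members and lists were chosen with earlier results of these data known. All 8 members were named. From each neighbouring list, up to 5 called genes were named, or the 2 with the smallest p where fewer than 2 were called, and further complex genes were named by level. Some genes that this rule names, and a ratio with one of them, are not reported here. For Dmd and Utrn the 3 genes nearest in course over the 8 libraries were named. Motifs and length classes were chosen after the data were seen.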

Additional observations from a re-analysis of the deposited data

Results flagged for a closer look

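A single library stood apart from the other 3 of its group for 4 of the 8 complex genes, by a gap past the critical value of Dixon's test. Utrn in liraglutide 4 was at 3.61 FPKM, against 2.8 to 2.84 FPKM in the other liraglutide libraries, and Sgcb in liraglutide 3 was at 31.9 FPKM, against 34 to 34.3 FPKM. In the model group, Dmd in model 4 was at 9.98 FPKM, against 10.8 to 10.9 FPKM, and Dag1 in model 3 was at 51.3 FPKM, against 48.8 to 49.1 FPKM. Over genes and ratios 78 groups of 4 values were checked, and the 4 above were all that were flagged. Chance alone flags about 1 in 20. Without liraglutide 4 the log2 fold change of Utrn was -0.48 (edgeR adjusted p = 0.0093), and without model 4 that of Dmd was -0.21 (edgeR adjusted p = 0.11).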

How the results depend on the processing

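Of the 8 genes, Sgca kept its direction and its call in 19 of 19 alternatives, with log2 fold changes of 0.19 to 0.31. Utrn kept its direction in all 19 and its call in 9. Its values without a call were -0.24 with the length offset, -0.21 with length and GC, -0.39 with the replicate number as a block (edgeR adjusted p = 0.0561) and -0.39 without liraglutide 2 and model 3, and it ranged from -0.48 to -0.33 over omissions of 1 library, 2 of them calls. Dmd was called at -0.26 with raw library sizes, -0.24 and -0.26 by limma with pseudocounts of 1 and 0.1, and changed sign to 0.065 with length and GC. Sntb1 was called at -0.71 with raw library sizes, -0.62 by DESeq2 and -0.62 with the replicate block, and ranged from -0.74 to -0.50 over omissions, 2 of them calls. Uncalled genes changed sign as follows: Dag1 to 0.050 (length), 0.0029 (without liraglutide 2 and model 3) and 0.013 (length and GC), Sgcb to -0.027, -0.024 and -0.025 and Dtna to -0.047, -0.043 and -0.047 (raw sizes, limma with pseudocounts of 1 and 0.1), and Sgcd to 0.068 (length and GC). The number of the 8 genes called was 4 with raw library sizes, 1 with length, 1 with length and GC, 1 without liraglutide 2 and model 3, and 1 to 3 over omissions. Over all genes, 1333 were called (53.0% higher), 697 without liraglutide 2 and model 3, 620 with length and GC, 615 to 1231 over omissions and 1035 with the replicate block, 912 of them among the 1333. Higher and lower calls were 338 and 1241 with raw library sizes (21.4% higher), 359 and 1049 with limma on log2(FPKM + 1) (25.5%), and 716 and 362 with the length offset (66.4%), against 707 and 626. The cause of these changes was not tested. Same-numbered libraries deviated together at correlations of 0.149, -0.0275, 0.143 and 0.0648, so the numbers were not taken to pair animals. Sntb1, at 113 to 245 counts per library, is the member most limited by depth.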
